A study of Homo sapiens with 2 samples.

Results

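The peaks described here lie in a stretch of human chromosome 5 that spans its centromere, and come from DNA recovered with an antibody against AIM2 in HaCaT cells. They are every deposited peak on chromosome 5 (build GRCh38) with its summit from 46 to 51 Mb, which is 178 of the 1525 peaks of the irradiated library and 219 of the 1936 peaks of the unirradiated library. HaCaT is an immortalised human keratinocyte line. The irradiated group (20 Gy) received X-rays at 1.15 Gy per minute, and its title also gives 4 h, without saying from which event this counts. The 0 Gy cells were left unirradiated, and each group has 1 library. In both groups the chromatin was fixed with formaldehyde and sonicated. The limits of the model are 1 cell line, no replicate and no control library in the peak calls, so a peak can reflect the antibody or other reasons for more reads at a place.

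Centromeres are the sites at which the kinetochore is built and chromosomes are pulled apart in division. In humans they are built on alpha satellite, a short repeat in head-to-tail arrays, and the reference build represents these arrays by modelled sequence. AIM2 is a sensor of double-stranded DNA that starts inflammasome assembly in the cytosol. A read from a repeat array can match many places almost equally well. Per the file headers, the alignments given to the peak caller were named as unique and free of duplicates, so peaks in an array can be reported only where reads were placed. The peak caller, keeping at most 1 fragment per position, still removed 17% of fragments at 20 Gy and 16.3% at 0 Gy. The sequence under the peaks was not analysed here, so the peaks are called by their position, and their name as alpha satellite was not checked.

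The peak caller kept 6423989 fragments of the 20 Gy library and 8786091 fragments of the 0 Gy library, a depth ratio of 0.731. Pileup, the number of fragments covering a summit, is therefore also given as FPM, the fragments covering the summit per 1000000 kept fragments. With 1 library per group no difference could be tested against replicate spread. All intervals are at 95%. Those of pileups and of single ratios describe counting error alone. Those of peak numbers, shares and medians treat peaks or pairs as independent, which neighbouring peaks are not. None covers replicate spread. Fragments copied during amplification do not count separate molecules.

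The region held 11.7% of all nuclear peaks in the 20 Gy library and 11.4% in the 0 Gy library. Its 178 peaks at 20 Gy (Poisson interval 153 to 206) covered 45052 bp, and its 219 peaks at 0 Gy (191 to 250) covered 57389 bp. Divided by depth, the 20 Gy library had 27.7 peaks here for each 1000000 kept fragments and the 0 Gy library 24.9. All nuclear peaks leaned the same way, with 236.3 at 20 Gy and 219.6 at 0 Gy. Numbers of called peaks need not rise in proportion to depth. Chromosome 5 carried only 9 further peaks at 20 Gy and 8 at 0 Gy over the rest of its length. So nearly all peaks called on this chromosome fell into the region.

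No peak of the region lay in an annotated gene. All 178 peaks at 20 Gy and all 219 at 0 Gy fell in a long gene-free interval of the RefSeq table. This was not particular to the region. Gene-free intervals of at least 1000000 bp elsewhere held a further 70.8% of nuclear peaks at 20 Gy and 73.0% at 0 Gy. On the long-arm side the region's interval is bounded by EMB, which encodes the cell surface protein embigin. The last peak ended 253142 bp before EMB at 20 Gy and 364319 bp before it at 0 Gy. PARP8, a gene of the ADP-ribosyltransferase family, also lies within the 46 to 51 Mb limits and carried no peak in either library. The limits themselves cut through no crowd of peaks. The first peak inside them was at 46434645 to 46434823 at 20 Gy (pileup 9) and at 46433564 to 46433765 at 0 Gy (pileup 10). The last was at 50142846 to 50143050 at 20 Gy (pileup 10) and at 50031662 to 50031873 at 0 Gy (pileup 9). Outside the limits, the nearest peak below was at 23213511 to 23213887 at 20 Gy (pileup 9) and at 39787767 to 39788044 at 0 Gy (pileup 8). Above them the nearest was at 124960996 to 124961192 at 20 Gy (pileup 7), and none was called at 0 Gy.

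Peaks were more numerous and taller towards the long-arm side of the region, up to 49667238, and few were called beyond that position. Between 47 and 48 Mb there were 37 peaks at 20 Gy and 52 at 0 Gy. From 48 to 49 Mb there were 55 at 20 Gy and 74 at 0 Gy, and from 49 to 50 Mb 81 at 20 Gy and 88 at 0 Gy. The median pileup in these 3 windows was 11, 12 and 16 in the 20 Gy library, and 12.5, 15 and 19.5 in the 0 Gy library. Both libraries thus had the same order of windows in number and in height. An unbroken run of 28 windows of 100 kb, from 47.3 to 50.1 Mb, held peaks of both libraries in every window, with 173 of the 178 peaks at 20 Gy and 214 of the 219 at 0 Gy. The fullest window, from 49.5 to 49.6 Mb, held 18 peaks in each library. The next by the rule were 49.3 to 49.4 Mb, with 13 peaks at 20 Gy and 12 at 0 Gy, and 49.4 to 49.5 Mb, with 10 at 20 Gy and 13 at 0 Gy. At 20 Gy the window from 48.9 to 49 Mb also held 10. The 3 fullest windows of each list together held 23.03% of its peaks at 20 Gy and 19.63% at 0 Gy.

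Both ends of the region were sparse and low. Short of the unbroken run lay 3 peaks at 20 Gy, with pileups from 5 to 11, and 5 at 0 Gy, with pileups from 8 to 15. In this end 1 pair overlapped, at 46617343 to 46617655 in the 20 Gy library (pileup 11) and 46617371 to 46617687 in the 0 Gy library (pileup 15). Beyond the last tall peak, which ended at 49667238 in both libraries, there were 9 peaks at 20 Gy with pileups from 7 to 11 and 6 at 0 Gy with pileups from 9 to 12, and 2 in each list overlapped. The longest stretch between neighbouring summits was 653043 bp at 20 Gy, from 46617477 to 47270520. At 0 Gy it was 552307 bp, from 46622921 to 47175228. Neighbouring summits were a median of 11273 bp apart at 20 Gy (interval of the median 8379 to 13201) and 9869 bp at 0 Gy (8158 to 10849). Merging neighbours within 10000 bp left 93 blocks at 20 Gy and 103 at 0 Gy, of which 60 in each library held a single peak.

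**Figure D1:**
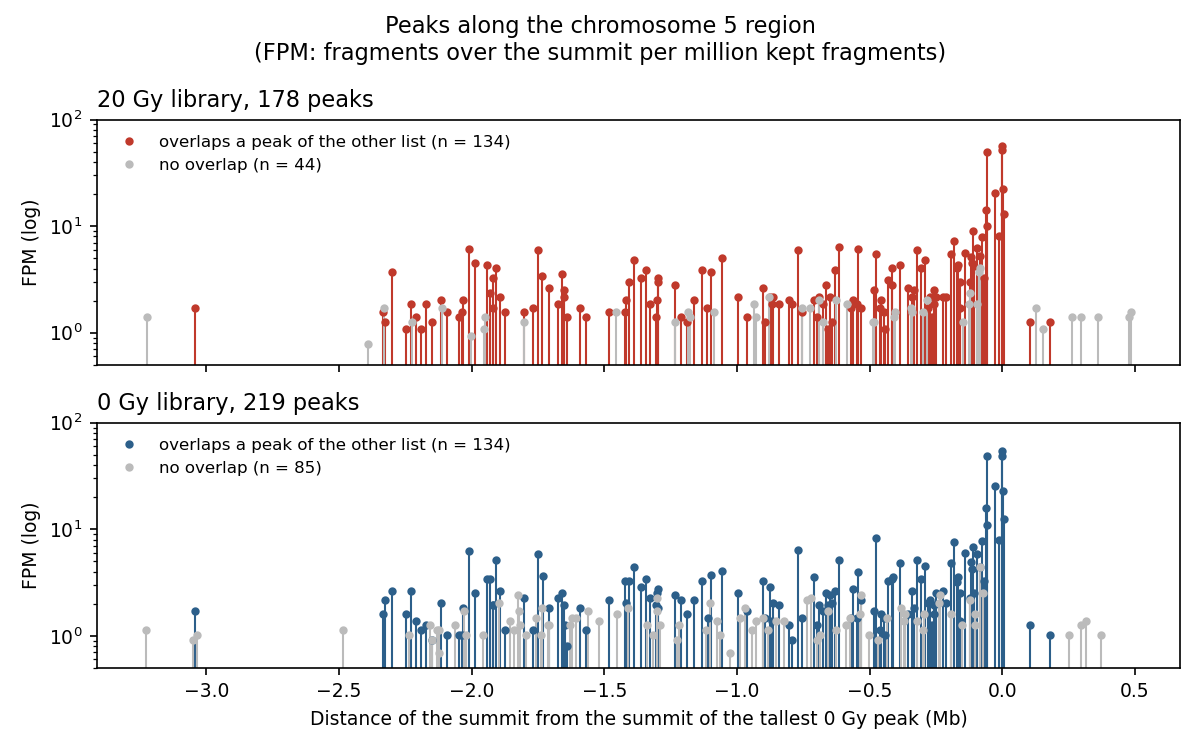
FPM (log axis) of each peak, against the distance of its summit in Mb from the summit of the tallest 0 Gy peak, with the 20 Gy library above the 0 Gy library. Coloured peaks overlap a peak of the other list (134 in each) and grey peaks do not (44 at 20 Gy, 85 at 0 Gy); the tallest peaks of both libraries stand together near distance 0, and few peaks lie beyond them.

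Most peaks of the region were short and low. At 20 Gy, 60 peaks were shorter than 200 bp and 94 had from 200 bp to under 300 bp, and at 0 Gy the counts were 47 and 133. Peaks of at least 500 bp numbered 6 at 20 Gy and 7 at 0 Gy. The median pileup was 13 at 20 Gy (quartiles 10 and 22.8) and 16 at 0 Gy (11 and 23), which is 2.02 FPM at 20 Gy and 1.82 FPM at 0 Gy. Pileups of 100 or more were reached by 5 peaks at 20 Gy and 7 at 0 Gy. The authors' fold enrichment of pileup over local background had a median of 7.26 at 20 Gy and 7.27 at 0 Gy, and the median −log10 q-value was 7.66 at 20 Gy and 8.66 at 0 Gy.

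A group of 9 peaks close together held much of the signal called in the region. It spanned 49599519 to 49667238 in the 20 Gy library and 49599513 to 49667238 in the 0 Gy library, and was picked after its values were seen. This is 67720 bp at 20 Gy and 67726 bp at 0 Gy. At 20 Gy they made up 5.06% of the region's peaks and 36.6% of its summed pileup. At 0 Gy they made up 4.11% of the peaks and 35.0% of the pileup. Their pileups summed to 246.0 FPM at 20 Gy and 246.6 FPM at 0 Gy, over 5372 bp at 20 Gy and 5536 bp at 0 Gy, with mean pileups of 176 at 20 Gy and 241 at 0 Gy. Outside the group the highest pileup was 58 at 20 Gy, at 49547227 to 49547513, and 73 at 0 Gy, at 49183027 to 49183410. All 9 peaks of each list overlapped a peak of the other.

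The tallest peak of the region stood at the same bases in both libraries, 49659369 to 49659978. Its pileup was 364 at 20 Gy (328 to 403) and 474 at 0 Gy (432 to 519), which is 56.7 FPM at 20 Gy and 54.0 FPM at 0 Gy. The depth-scaled ratio of 20 Gy over 0 Gy was 1.05 (exact interval 0.914 to 1.21), so the libraries did not differ beyond counting error there. Its neighbour at 49658341 to 49658791 in the 20 Gy library, 1 base longer in the 0 Gy library, had pileups of 331 at 20 Gy and 424 at 0 Gy, with a ratio of 1.07 (0.922 to 1.24). The longest peak, 1377 bp at 20 Gy from 49601500 to 49602876 and 1445 bp at 0 Gy from 49601488 to 49602932, had pileups of 321 at 20 Gy and 429 at 0 Gy, with a ratio of 1.02 (0.883 to 1.19). In each of these 3 pairs the depth-scaled heights differed by less than counting error. The lowest of their −log10 q-values was 180.7 at 20 Gy and 217.7 at 0 Gy.

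A further pair, at 49630741 to 49631174 in the irradiated library and 49630734 to 49631212 in the unirradiated one, differed from them. It was lower than these 3, with pileups of 130 at 20 Gy and 225 at 0 Gy, but had the highest fold enrichment of the region, 33.4 at 20 Gy and 37.7 at 0 Gy. Its depth-scaled ratio was 0.790 (0.632 to 0.985), an interval that stays below 1. It was 1 of 134 overlapping pairs examined, and the interval is not adjusted for that number. Next to it, the peak at 49645946 to 49646258 at 20 Gy had pileups of 52 at 20 Gy and 69 at 0 Gy and a ratio of 1.03 (0.705 to 1.499). The peak at 49583980 to 49584262 at 20 Gy, just outside the group, had pileups of 51 at 20 Gy and 68 at 0 Gy and a ratio of 1.03 (0.699 to 1.497).

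The local background under the tall peaks was itself high. It is the coverage that the peak caller expected at a summit, and was recovered here from the deposited pileup and fold enrichment. Without a control library it comes from the same library within 10000 bp, so fragments of tall peaks close together count in it. This background is therefore not independent of the peaks. At the tallest pair it was 38.1 fragments at 20 Gy and 53.4 at 0 Gy, which is 90.8 times the genome-wide background of the library at 20 Gy and 89.6 times at 0 Gy. At the pair with the highest fold enrichment it was only 2.92 fragments at 20 Gy and 5.00 at 0 Gy. The order of peaks by fold enrichment therefore differs from their order by pileup. Over the other peaks of the region the local background was a median of 2.16 times the genome-wide value at 20 Gy and 2.01 times at 0 Gy. It reached at most 10.5 times at 20 Gy and 8.66 times at 0 Gy. Only 6 peaks at 20 Gy and 11 at 0 Gy stood within 1% of the genome-wide background itself.

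**Figure D2:**
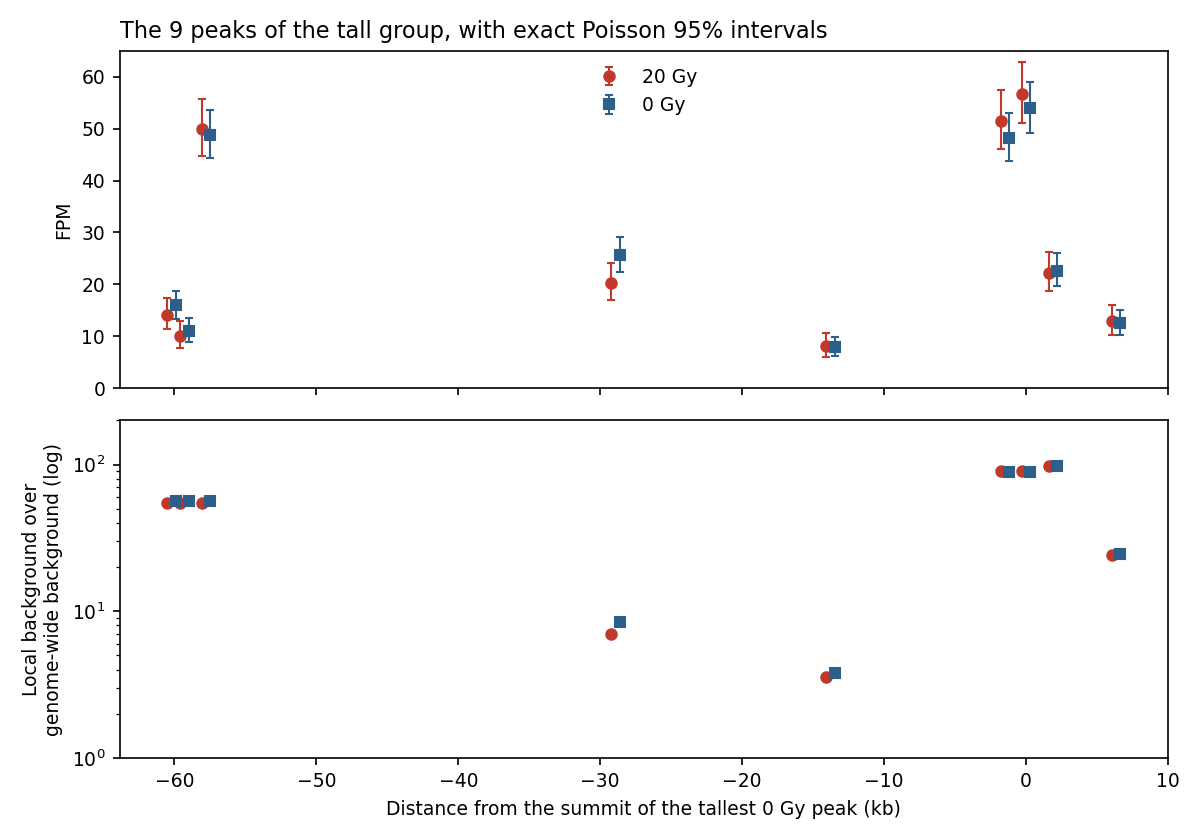
FPM with exact Poisson 95% intervals (top) and local background over the genome-wide background on a log axis (bottom) for the 9 tall peaks, against distance in kb from the summit of the tallest 0 Gy peak; the 20 Gy and 0 Gy points are shifted slightly apart sideways. The intervals of the libraries overlap at all 9 peaks, and the background is lowest at the peaks in the middle, between 3.56 and 8.40 times the genome-wide value. Overlap of separate intervals does not mean equal heights. At 49630741 to 49631174 (20 Gy) the depth-scaled ratio was 0.790 (0.632 to 0.985), an unadjusted interval that excludes equal heights. The local background includes fragments of the peaks themselves and of close neighbours.

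At 20 Gy, 134 of the 178 peaks overlapped a 0 Gy peak by at least 1 bp, a share of 75.3% (exact Clopper-Pearson interval 68.3 to 81.4). Over all nuclear peaks of that library the share was 69.2%. At 0 Gy, 134 of the 219 peaks overlapped a 20 Gy peak, or 61.2% (54.4 to 67.7), where all nuclear peaks gave 54.3%. Outside the region the shares were 68.4% at 20 Gy (65.8 to 70.8) and 53.4% at 0 Gy (50.99 to 55.78). The region's shares lay above those values in both libraries, and in both the intervals overlapped. No test of this difference was made, since neighbouring peaks of a library are not independent. The gene-free intervals of chromosomes 1, 10 and 19, which also hold many peaks, had shares of 75.5%, 80.7% and 75.9% at 20 Gy and 65.6%, 70.9% and 57.8% at 0 Gy, so shares of this size were not limited to chromosome 5.

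Strong peaks overlapped more often than weak ones. At 20 Gy, 36 peaks of the region reached a −log10 q-value of 20, and all 36 overlapped a 0 Gy peak (interval 90.3% to 100%). At 0 Gy, 49 of 50 such peaks overlapped a 20 Gy peak (98.0%). Between 5 and 10 the shares were 75.9% of 58 peaks at 20 Gy and 44.7% of 76 at 0 Gy. Between 3 and 5 they were 52.3% of 44 at 20 Gy and 18.4% of 38 at 0 Gy. Below 3 there were only 11 peaks at 20 Gy, of which 36.4% overlapped (10.9 to 69.2), and 8 at 0 Gy, of which 4 did (15.7% to 84.3%). The 0 Gy share is thus an exception to the order, with a wide interval. Nuclear peaks outside the region showed much the same order. There the shares at 20 Gy were 97.7% at 20 or more, 72.8% between 5 and 10, 45.96% between 3 and 5 and 21.7% below 3. At 0 Gy they were 97.98%, 41.1%, 25.5% and 16.0% in the same bins.

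**Figure D3:**
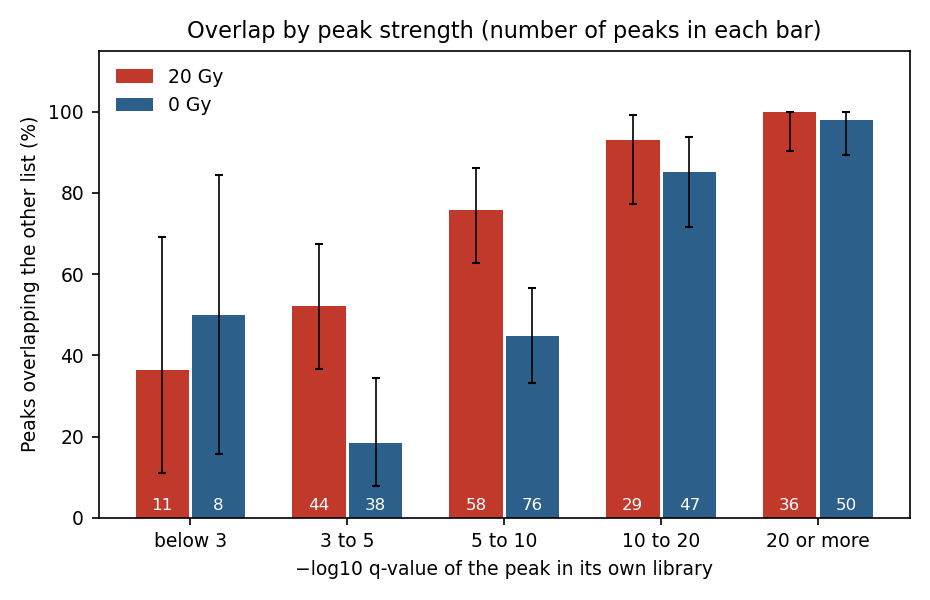
Percent of the region's peaks that overlap a peak of the other list, by the −log10 q-value of the peak in its own library, with exact Clopper-Pearson 95% intervals and the number of peaks inside each bar. At 20 or more the share is 100% at 20 Gy and 98.0% at 0 Gy; between 3 and 5 it is 52.3% at 20 Gy and 18.4% at 0 Gy.

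The overlapping peaks paired off exactly, giving 134 pairs, and their summits lay close together. The distance between the paired summits was a median of 17.5 bp and at most 185 bp, and 44 pairs (32.8%) were within 10 bp. Outside the region 29.9% of 917 nuclear pairs were that close. In 12 pairs the start or the end was the same base in both libraries, and in 2 pairs both were. These 2 were the tallest peak and the one at 49666175 to 49667238, which had pileups of 83 at 20 Gy and 110 at 0 Gy. Both belong to the group of 9 tall peaks.

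Scaled to depth, the heights of the pairs differed little between the libraries at the median, and the side of 1 on which the median ratio fell depended on the scaling. In raw fragments the pileup was lower at 20 Gy in 109 of the 134 pairs (81.3%), and in 81.0% of the nuclear pairs outside the region. Per kept fragment, the median ratio of 20 Gy over 0 Gy was 1.05 (interval of the median 1.00 to 1.12), with quartiles of 0.891 and 1.25 and extremes of 0.472 and 2.05, and 79 pairs (59.0%) were above 1. It was 0.944 with the authors' fold enrichment in place of pileup, and 0.989 when centred on the nuclear pairs outside the region. Fold enrichment has 1 added to pileup and to background, which lowers it more in the shallower library. The 0.944 is therefore not free of depth. The nuclear pairs outside the region had a median ratio of 1.06 (1.04 to 1.08). The recovered local background at the paired summits, scaled in the same way, had a median ratio of 0.993. Across the 134 pairs the log10 pileups of the libraries had a Pearson correlation of 0.938. This is a description across peaks of 2 libraries that share the cell line and the mapping of reads to the same sequence.

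Few pairs passed a depth-scaled difference of 1.5-fold. It was reached by 14 of the 134 pairs (10.4%) in the direction of 20 Gy, against 10.8% of all nuclear pairs, and by 7 (5.22%) in the direction of 0 Gy, against 5.71%. Both shares are near those of all nuclear pairs. Centred on the nuclear pairs outside the region, 9 pairs were past 1.5-fold higher and 10 past it lower at 20 Gy, and scaled by the genome-wide background 18 were higher and 5 lower, so the balance between the directions turned with the scaling. Weak pairs held most of these. Where the pileups of both libraries together came to at least 60, only 1 of 30 pairs was past 1.5-fold higher and 1 past it lower at 20 Gy, with a median ratio of 1.03. Where they came to less than 30, 8 of 47 pairs were past it higher and 4 lower, with a median ratio of 1.11. The counting interval of the ratio lay above 1 in 1 pair and below 1 in 3 pairs of the region, where 1.71% and 1.14% of all nuclear pairs did so.

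The pair with the highest ratio among those with a pileup of at least 20 in either library lay at 47671647 to 47671903 at 20 Gy. It had a pileup of 29 at 20 Gy and 22 at 0 Gy, with a ratio of 1.80 (1.00 to 3.29), and was the pair whose interval lay just above 1. The next were at 48362331 to 48362535, with pileups of 21 at 20 Gy and 16 at 0 Gy and a ratio of 1.80 (0.893 to 3.68), and at 47739682 to 47739934, with 21 at 20 Gy and 17 at 0 Gy and a ratio of 1.69 (0.849 to 3.41). At the other end, the pair at 48238457 to 48238653 had a pileup of 10 at 20 Gy and 29 at 0 Gy, with a ratio of 0.472 (0.205 to 0.996). The pair at 48950384 to 48950649 had 13 at 20 Gy and 31 at 0 Gy, with a ratio of 0.574 (0.275 to 1.13). The pair at 49183034 to 49183395 had 35 at 20 Gy and 73 at 0 Gy, with a ratio of 0.656 (0.425 to 0.994). The last is the highest 0 Gy peak outside the tall group. Its fold enrichment was 17.9 at 20 Gy and 25.3 at 0 Gy. Fold enrichment uses the same pileups and, with 1 added to pileup and background, is lower at lower depth. How much of the difference in fold enrichment comes from depth was not tested. The depth-scaled local background of this pair was also lower at 20 Gy, with a ratio of 0.716. These 6 pairs were chosen for their ratios, so their values are a description.

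**Figure D4:**
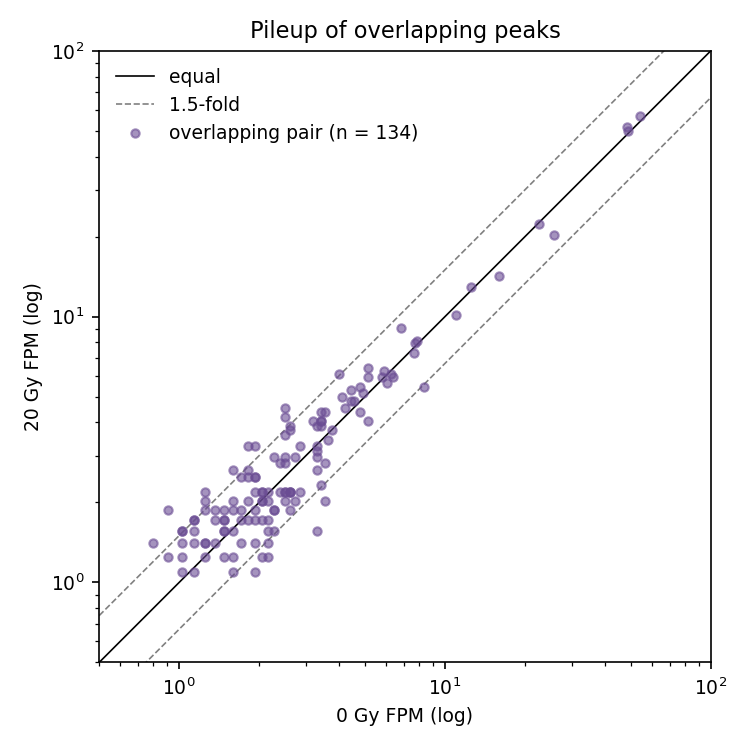
FPM of the 134 overlapping pairs, 20 Gy on the vertical and 0 Gy on the horizontal log axis, with lines for equal values and for 1.5-fold differences. The points follow the line of equal values up to the tallest pair, at 56.7 at 20 Gy and 54.0 at 0 Gy, and spread more widely at low pileup.

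The peaks without a counterpart were scattered through the region and, at the median, lower than the overlapping peaks. At 20 Gy 44 peaks had no counterpart, with a median pileup of 10 and a highest of 26. At 0 Gy 85 had none, with a median of 12 and a highest of 39. The overlapping peaks had medians of 14 at 20 Gy and 20.5 at 0 Gy. Of the peaks without a counterpart, 28 at 20 Gy and 35 at 0 Gy had a −log10 q-value below 5. The nearest peak of the other list was a median of 3259 bp away at 20 Gy and 5699 bp at 0 Gy, and 7 in each list had one within 1000 bp. At 20 Gy, 9 of the 44 were shorter than the 177 bp that the 0 Gy call required, so no peak of that length could be reported at 0 Gy. A longer 0 Gy peak could still overlap such a peak. This was so at 47469791 to 47469961, with 171 bp at 20 Gy and 209 bp at 0 Gy. When pileup and background of the 85 peaks at 0 Gy were multiplied by the depth ratio, 3 fell below the lowest −log10 p-value called at 20 Gy, which was 5.03. This sets aside counting error and the minimum length, whose part was not tested.

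The strongest peaks without a counterpart at 20 Gy were at 49569802 to 49570011, with a pileup of 24 (15.4 to 35.7), at 49573874 to 49574105, with 26 (17.0 to 38.1), and at 48780343 to 48780607, with 14 (7.65 to 23.5). Their −log10 q-values were 13.1, 12.6 and 9.16. At 0 Gy they were at 49574623 to 49574897, with a pileup of 39 (27.7 to 53.3), at 47833126 to 47833376, with 21 (13.0 to 32.1), and at 49126078 to 49126305, also with 21. Their −log10 q-values were 21.3, 15.5 and 13.7. The second of the 20 Gy peaks and the first of the 0 Gy peaks were neighbours, with 517 bp between them. Each library thus had a peak at that place without an overlap between them.

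Summed over all peaks of the region, the pileup came to 671.7 FPM at 20 Gy over 45052 bp, with a mean pileup of 24.2, and to 705.1 FPM at 0 Gy over 57389 bp, with a mean of 28.3. Without the 9 tall peaks the sums were 425.7 FPM at 20 Gy and 458.5 FPM at 0 Gy. Such sums move with how many peaks were called, and 41 more were called at 0 Gy, the deeper library.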

How the data were processed

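DNA recovered with an AIM2 antibody was sequenced from 1 library at 20 Gy and 1 at 0 Gy, grouped by the treatment label because the protocol text names irradiation for both. Per the file headers, the authors called peaks with MACS2 2.1.2 separately for each library, using paired ends, a q-value limit of 0.05, at most 1 fragment per position, no control library and minimum lengths of 170 bp at 20 Gy and 177 bp at 0 Gy. Trimmomatic 0.36, BWA 0.7.15-r1140 and build GRCh38.p13 are named in the submitters' processing notes. The deposited pileup is a coverage signal at the summit, not scaled between libraries per the file headers. The deposited −log10 p-values, −log10 q-values and fold enrichment, a ratio, compare a peak with the background around it in its own library, per the file headers.

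Positions are 1-based. Peaks were matched by overlap of at least 1 bp, and pileups divided by kept fragments. Shares carry exact Clopper-Pearson intervals, counts exact Poisson intervals, ratios exact conditional binomial intervals and medians order-statistic intervals, all at 95%. Local background was taken as (pileup + 1) divided by fold enrichment, less 1; with it, the deposited −log10 p-value was recovered within 1% for 100% of 1498 peaks (20 Gy) and of 1907 peaks (0 Gy) where this could be computed. Genes came from a RefSeq table of GRCh38.p14, a patch release with the same chromosome coordinates. A genome sequence was not used here, so planned sequence features were not analysed. Named peaks were the 6 pairs with the highest lower −log10 q-value, the 3 strongest without overlap in each list, the 3 highest and 3 lowest ratios with a pileup of at least 20, the outermost peaks, the 3 fullest windows and any peak in a gene. The region and all rules were chosen with earlier results of these data known. Overlap and interval steps were tested on simulated data. Alternatives were other limits on q-value, length, region, overlap, scaling, fold and window size. Computation used Python 3.11.15, NumPy 2.4.6, pandas 2.3.3 and SciPy 1.17.1.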

Additional observations from a re-analysis of the deposited data

How the results depend on the processing

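Of 94 recomputed values, 75 stayed within the interval of the reported value or within 1.5 times a reported count, and 19 moved. With −log10 q-values limited to 5 or more, 83.7% of the 20 Gy peaks overlapped, summits were a median of 14421.5 bp apart at 20 Gy and 10916 bp at 0 Gy, summed pileups were 593.2 FPM at 20 Gy and 652.2 FPM at 0 Gy, and 2 pairs were past 1.5-fold lower at 20 Gy. At a limit of 3 there were 4 such pairs. These limits leave fewer peaks by construction. Equal numbers of peaks gave 69.1% overlapping in the 20 Gy list and in the 0 Gy list, of which the 0 Gy value had moved. With peaks paired off exactly, lists of equal size have equal shares by construction. Windows of 50 kb held 14.04% of peaks at 20 Gy and 11.4% at 0 Gy in the 3 fullest, being smaller. Scaling by all fragments gave sums of 557.5 at 20 Gy and 590.1 at 0 Gy, since the divisor is larger. The median ratio was 0.944 with fold enrichment in place of pileup. With 1 added to pileup and background, fold enrichment is by construction lower at lower depth. The median ratio was 0.989 when centred on the nuclear pairs outside the region, with 9 pairs then past 1.5-fold higher and 10 past it lower at 20 Gy. Centring divides every ratio by the median of the pairs outside, which was above 1, so it lowers all ratios by construction. The median ratio was thus on either side of 1, depending on the scaling. A fold limit of 2 left 1 pair in each direction, and a stricter limit can only leave fewer by construction. Without the 9 tall peaks, an alternative added after the data were seen, the sums were 425.7 at 20 Gy and 458.5 at 0 Gy. Leaving peaks out lowers a sum by construction. Scaling by the recovered genome-wide background, also added after the data were seen, gave a median ratio of 1.09, with 18 pairs higher and 5 lower. Except where construction is named, the cause was not tested. No paired analysis was possible because there is 1 library in each group. Planned sequence features were not run.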
